A study of Mus musculus with 8 samples.

Results

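The comparison was between mouse eosinophils cultured with IL-5 alone (group E0, 2 libraries) and eosinophils cultured without cytokine (group CN, 2 libraries). It was read over protein-coding genes, leaving out the row without a gene name and 9 retrocopies. This left 12265 of the 15917 genes in the count table, of which 12264 passed the filter on low counts. The cells came from the blood of C57BL/6 mice described as IL-5 transgenic (NJ.1638), although the genotype label reads WT, and the labels do not give the promoter of the transgene. CD90-positive and B220-positive cells were depleted with beads, purity was above 97% by stain, and the cells were kept for 18 h in RPMI-1640 with serum. E0 received 10 ng/mL of IL-5 and CN received nothing. Cells of both groups, if taken from transgenic animals, had met IL-5 in the body before culture. The other groups, named below for orientation, were E1, given IFN-γ plus TNF-α at 15 ng/mL, and E2, given IL-33 at 30 ng/mL and GM-CSF, IL-4 and IL-5 at 10 ng/mL.

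CN and E1 were made in experiment 1, and E0 and E2 in experiment 2. No library of experiment 1 received IL-5 and all libraries of experiment 2 did, so the cytokine and the experiment cannot be told apart in any value below, and no comparison of E0 with CN within an experiment exists. "Higher" and "lower" therefore describe the E0 libraries against the CN libraries.

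IL-5 is the main survival and maturation factor of eosinophils, granule-bearing leukocytes of type 2 immunity. It binds the IL-5 receptor alpha chain, which pairs with the common beta chain shared with the receptors for IL-3 and GM-CSF. The pair activates the kinase JAK2 and the transcription factors STAT5A and STAT5B, together with the PI3 kinase and ERK pathways. STAT5 is known to induce its own inhibitors, such as Cish and the Socs genes, and survival genes such as Pim1 and Bcl2l1.

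Stretches around the transcript start of 4 genes are shown first, picked from list members that hold a motif named below. Asns was chosen after its values were seen. Cish and Socs3 are feedback inhibitors of the STAT5 pathway, and Trib3 and Asns belong to the integrated stress response, a programme of amino acid shortage and other stresses. Each stretch holds 200 bases before the RefSeq transcript start and 30 bases from it, on GRCm38.p6. Capitals mark the motif TTCNNNGAA, a STAT site that reads alike on both strands, in Cish and Socs3. In Trib3 and Asns they mark TGATGNAA or its reverse complement, a form of the element through which ATF4 and related factors act, chosen after the values were seen.
Cish, chr9:107296459-107296688, plus strand: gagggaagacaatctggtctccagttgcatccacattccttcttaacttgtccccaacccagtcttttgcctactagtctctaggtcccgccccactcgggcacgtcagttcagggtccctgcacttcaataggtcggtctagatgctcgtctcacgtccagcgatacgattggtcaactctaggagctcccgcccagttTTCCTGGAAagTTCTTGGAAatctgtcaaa
Socs3, chr11:117969337-117969566, minus strand: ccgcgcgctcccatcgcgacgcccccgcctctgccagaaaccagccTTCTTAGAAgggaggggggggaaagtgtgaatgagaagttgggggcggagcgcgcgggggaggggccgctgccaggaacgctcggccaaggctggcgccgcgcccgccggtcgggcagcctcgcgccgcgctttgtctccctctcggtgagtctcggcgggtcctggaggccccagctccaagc
Trib3, chr2:152344031-152344260, minus strand: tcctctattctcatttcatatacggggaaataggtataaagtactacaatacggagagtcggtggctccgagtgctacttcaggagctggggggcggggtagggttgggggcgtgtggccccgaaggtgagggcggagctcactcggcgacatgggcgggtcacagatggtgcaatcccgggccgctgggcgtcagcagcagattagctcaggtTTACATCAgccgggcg
Asns, chr6:7693180-7693409, minus strand: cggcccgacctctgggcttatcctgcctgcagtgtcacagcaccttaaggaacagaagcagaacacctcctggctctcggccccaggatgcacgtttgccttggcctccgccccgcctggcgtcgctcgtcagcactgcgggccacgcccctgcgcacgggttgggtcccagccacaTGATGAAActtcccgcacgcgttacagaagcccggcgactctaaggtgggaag

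The STAT motif was found in 8.3% of the 32851 windows of 300 bases in the RefSeq table. It was present for 3 of the 19 STAT5 target genes with a window (Bcl6, Cish and Socs3), or 15.8%, for 3 of 17 genes of the stress response list, or 17.6%, and for 8.51% of all 9645 protein-coding genes that had one. Cish held 2 matches, the first base of each lying 0 and 11 bases from the transcript start. The ATF4-type motif was found in 3.97% of windows, in 2.87% of the protein-coding genes and in 6 of 17 genes of the stress response list (Aars, Asns, Chac1, Gars, Nupr1 and Trib3), or 35.3%. Matches of the 2 motifs overlapped in 0 windows. A match is only a run of letters, and no binding was measured.

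Library totals were 95065752 and 83726309 counts in CN and 60809057 and 78968527 in E0, and protein-coding genes held 89.6% to 93.9% of them. Levels are in CPM, counts scaled to the library total with TMM factors. In these groups 3 counts, the limit that a count of 0 leaves, came to between 0.0316 and 0.0493 CPM, for counting error only. The Y-linked gene Eif2s3y stood at 72.2 CPM in CN replicate 1 and 92.1 CPM in E0 replicate 1, and at 0 counts in both second replicates. The replicates of a group thus differed in sex and were not splits of a single animal or pool. The labels do not say how many animals or cultures each came from, so the p-values measure the spread between these samples. That spread includes the difference of sex and may otherwise be technical.

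**Figure D1:**
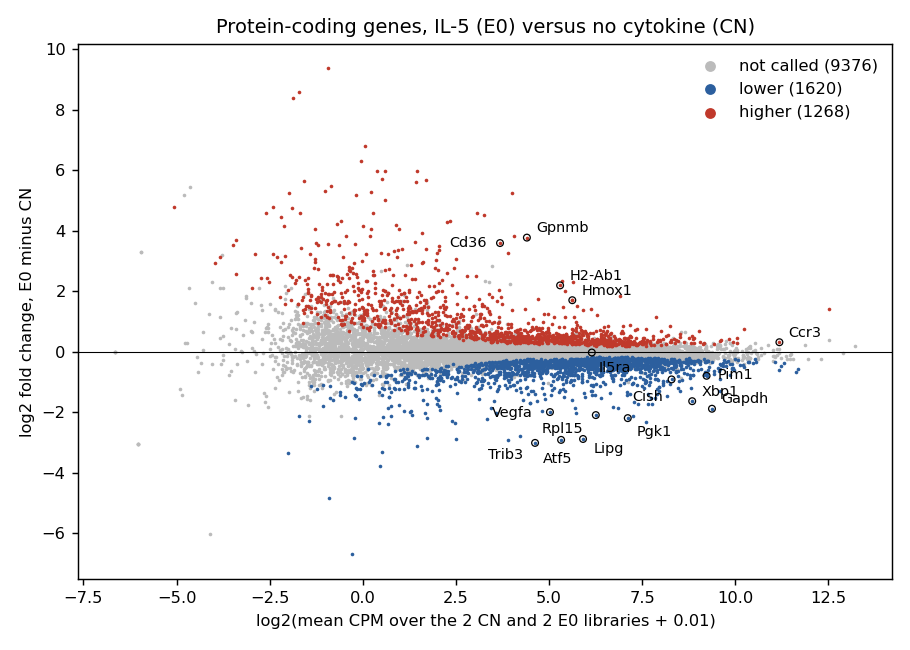
Each point is a protein-coding gene, with its log2 mean level over the 4 CN and E0 libraries on the horizontal axis and its fitted log2 fold change, E0 minus CN, on the vertical axis. Red and blue points are the 1268 genes called higher and the 1620 called lower, and circled genes are named in the text. Fitted values at the left edge rest on few counts and depend on the prior count.

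Of the 12264 protein-coding genes tested, 2888 (23.5%) differed between E0 and CN at an adjusted p below 0.05 (edgeR's quasi-likelihood test, Benjamini-Hochberg over all 15913 genes), against 25.4% of all genes. In E0, 1268 were higher (10.3%, against 13.5% of all genes) and 1620 lower (13.2%, against 11.9%). The median log2 fold change was -0.01, and it was 0.01 over all genes. For every list below, the shares to set its counts against are the 13.5% and 11.9% of all genes. Changes of at least 2-fold were found for 456 of the 12264 genes higher and 211 lower, and of at least 8-fold for 76 and 7. Over all 15913 genes these counts were 1243 and 324 at 2-fold, and 539 and 31 at 8-fold. With scaling by library totals alone, 1630 were called higher and 1046 lower, so the share of calls that were higher went from 43.9% to 60.9%. Without CN replicate 2, E0 replicate 1 or E0 replicate 2, 1470, 1572 and 1310 genes were called in all. Of the 44 counts of 3 or more calls among the gene lists below, 30 moved by over 1.5 times in at least 1 of the 4 fits that leave out a library, and some of these are given beside their list. With a replicate block in the CN and E0 libraries alone, 1597 genes were called.

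A second description used all 8 libraries and no test. In 1520 protein-coding genes all 4 libraries of experiment 2 lay above all 4 of experiment 1, and in 1843 all lay below, where 16.2% and 13.9% of all genes did so. Among the protein-coding genes called in E0 versus CN, 740 of the 1268 higher and 915 of the 1620 lower had this arrangement. Among all genes called, 1537 of the 2141 higher and 1092 of the 1897 lower had it. In genes with this arrangement E2, with more cytokines, was on the same side as E0. For the others, E1 or E2 crossed into the range of the other experiment.

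Of 35 genes of the receptor and its signalling chain, 1 was higher (Pik3r1, a regulatory subunit of PI3 kinase) and 3 lower (Pik3cd, Akt2 and Stat3), with a median of -0.06. Without CN replicate 2 or E0 replicate 1, 1 was lower. The call of Pik3r1 was lost in 6 of the 15 alternatives, limma-voom among them, that of Akt2 in 4, that of Stat3 in 6 and that of Pik3cd in 0. Il5ra, the IL-5 receptor alpha chain, stood at 73.5 and 69.9 CPM in CN and 73.5 and 66.6 CPM in E0, overlapping ranges (log2 fold change -0.03 ± 0.08, SE). The common beta chain Csf2rb held 3519 and 3410 CPM in CN and 4157 and 3888 CPM in E0, above CN in both libraries but not called (0.22 ± 0.09, adjusted p = 0.109). Its close mouse copy Csf2rb2 had a difference of 0.23 ± 0.08, and reads of the pair may be shared. Jak2 differed by -0.18 ± 0.10, Stat5a by -0.04 ± 0.07 and Stat5b by -0.22 ± 0.07, none of them called. Pik3cd, the catalytic delta subunit of PI3 kinase that leukocytes use, was lower in E0, at 799.6 and 762.9 CPM against 1122 and 1163 CPM in CN. Of 13 ERK feedback genes edgeR called 0, DESeq2 0 and limma-voom 0, and 1 reached an unadjusted p below 0.05. Dusp6, a phosphatase of ERK kinases, differed by 0.02 ± 0.27.

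Of 25 genes known as targets of STAT5, 12 were lower in the libraries labelled IL-5, 2 were higher and 11 were not called, with a median of -0.51. Cish, an SH2 protein that dampens cytokine receptors, had 417.6 and 401.4 CPM in CN and 215.5 and 216.2 CPM in E0 (log2 fold change -0.92 ± 0.07, adjusted p = 6.13e-05). The groups did not overlap, and both E0 libraries lay near the E1 libraries, at 226.3 and 215.4 CPM. In E2, which received IL-5 too, Cish stood at 841.6 and 837.5 CPM, above every other library.

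Pim1, a serine/threonine kinase that supports survival, read 733.3 and 790.1 CPM in CN against 445.1 and 431.3 CPM in E0 (-0.80 ± 0.08). Pim2, a kinase of the same family, read 122.1 and 103.9 CPM against 49.5 and 52.6 CPM (-1.15 ± 0.10). Both kinases were highest in E2, where Pim2 reached 731.7 and 773.4 CPM. Socs1, an inhibitor of JAK kinases, was at 99.2 and 90.2 CPM in CN and 39.6 and 49.5 CPM in E0 (-1.09 ± 0.15), and Socs3 was lower by a log2 difference of -0.70 ± 0.09. Socs2, another gene of that family, overlapped between the groups, with 64.1 and 51.9 CPM in CN and 54.1 and 64.7 CPM in E0.

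The cytokine gene Osm (oncostatin M) stood at 53.8 and 56.9 CPM in CN and 37.4 and 36.4 CPM in E0. Il4ra, the IL-4 receptor alpha chain, read 169.1 and 184.1 CPM against 84.3 and 99.7 CPM (-0.94 ± 0.09). Xbp1, a factor needed for eosinophil development and for secretory capacity, had the largest decrease on the list, from 677.1 and 713.8 CPM to 213.8 and 231.7 CPM (-1.64 ± 0.08, adjusted p = 7.73e-06). Lif, Cdkn1a, Id1 and Bcl2l1 were the remaining genes called lower. The 2 genes called higher were Il2ra and Ccnd1, both below 3 CPM in these groups. The call of Il2ra was lost without CN replicate 2 or E0 replicate 2, and that of Ccnd1 without any 1 of the 4 libraries.

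In all 12 genes called lower both E2 libraries lay above both E0 libraries, an order that picking genes low in E0 favours. In 10 both E2 libraries also lay above both CN libraries, and none had all libraries of experiment 2 below experiment 1. The shares of all genes with E2 in these positions were not counted. The plot of STAT5 targets over all groups shows where E2 lay. Leaving out each library in turn gave 10 to 14 genes called lower on this list.

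**Figure D2:**
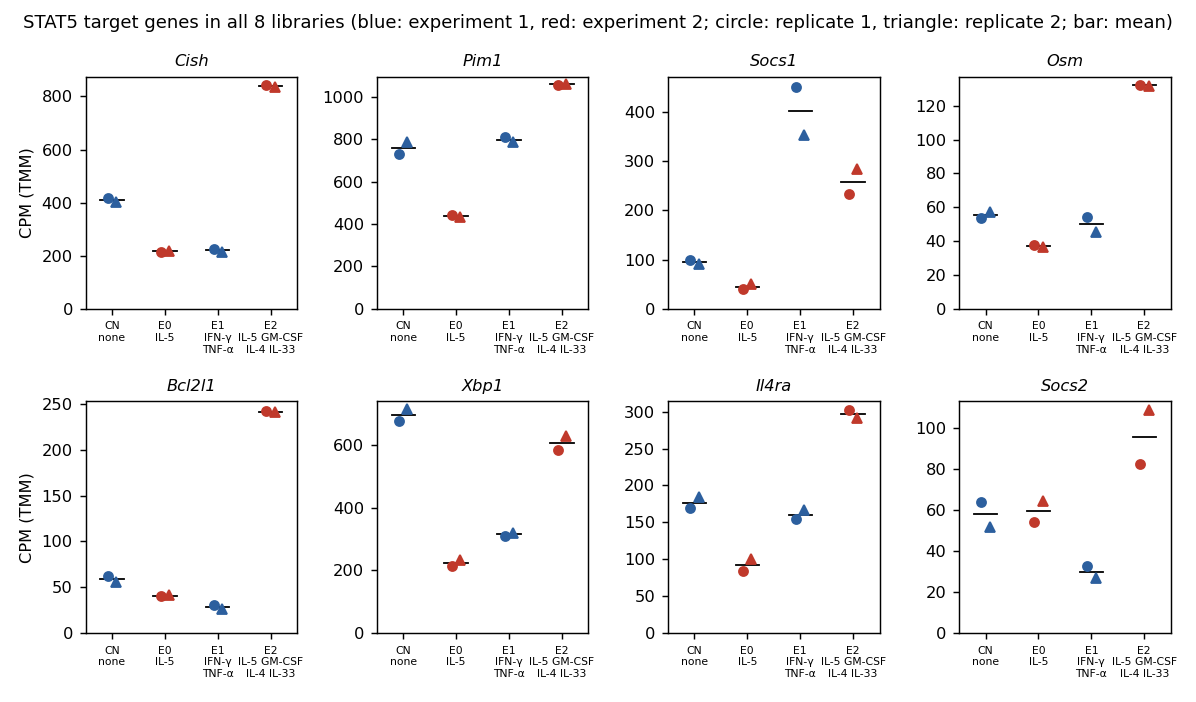
Levels of 8 STAT5 targets in CPM (linear axis from 0) in all 8 libraries, circles for replicate 1, triangles for replicate 2, bars for the mean of 2, blue for experiment 1 and red for experiment 2. Except for Socs2, E0 lies below CN in each panel, and E2 lies above E0 in all of them, with Cish at 841.6 and 837.5 CPM.

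Among 15 anti-apoptotic genes 3 were higher (20%) and 4 lower (26.7%). Among 22 pro-apoptotic genes 1 was higher (4.55%, against 13.5% of all genes) and 3 lower (13.6%, against 11.9%). Without E0 replicate 1 or E0 replicate 2, 1 pro-apoptotic gene was lower. The 4 anti-apoptotic genes that were lower were Bcl2l1 (62.2 and 55.7 CPM in CN, 40.7 and 41 CPM in E0), which encodes BCL-XL, and 3 Bcl2a1 genes, which encode the A1 family. Bcl2a1a read 111.5 and 95.6 CPM in CN and 34.4 and 42.8 CPM in E0 (-1.42 ± 0.12). Bcl2a1b and Bcl2a1d were lower by -1.42 and -0.81, but the A1 genes are near-identical and their reads may be divided among them. Bcl2 (-0.35 ± 0.18) and Mcl1 (0.11 ± 0.11) were not called. The inhibitor of caspases Xiap was higher, at 136.0 and 139.9 CPM against 113.9 and 103.6 CPM, and Cflar and Faim were higher by 0.25 and 0.33. Leaving out any 1 of the 4 libraries kept 1 of these 3 calls. Among the pro-apoptotic genes Cycs, Bak1 and Bid were lower, Cycs, the electron carrier that starts caspase activation, at 8.32 and 8.77 CPM against 16.6 and 13.3 CPM (-0.80 ± 0.13). Bcl2l11, which encodes the death protein BIM, overlapped between the groups (-0.18 ± 0.23).

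Genes of the integrated stress response and of amino acid synthesis were the list with the largest share of calls in a single direction apart from MHC class II. Of 19 genes 15 were lower in E0, with a median of -0.73, and edgeR, DESeq2 and limma-voom called 0 higher (0 at an unadjusted p below 0.05). Trib3, a pseudokinase induced by ATF4, stood at 24.3 and 63.5 CPM in CN and 5.15 and 5.64 CPM in E0 (-3.02 ± 0.43, adjusted p = 0.00179), the largest decrease among genes at 10 CPM or more. Atf5, a factor of the same response, read 46.5 and 94.9 CPM against 8.56 and 10.1 CPM (-2.92 ± 0.32). Atf4 itself, whose translation drives the programme, differed less, from 258.2 and 284.9 CPM to 181.4 and 203.9 CPM (-0.50 ± 0.10).

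Enzymes of transfer RNA charging and of folate metabolism were among them. Aars, the alanyl-tRNA synthetase, had 64.1 and 105.7 CPM in CN and 18.8 and 22.9 CPM in E0 (-2.02 ± 0.23). Mthfd2, a mitochondrial folate enzyme, had 35.9 and 53.1 CPM in CN and 9.77 and 12.8 CPM in E0 (-1.98 ± 0.21). Asns, which makes asparagine, was at 3.87 and 8.41 CPM against 1.3 and 2.73 CPM (-1.59 ± 0.42, adjusted p = 0.0283). Its call was lost in 3 of the 15 alternatives, among them without CN replicate 2 (adjusted p = 0.155) and without E0 replicate 1 (adjusted p = 0.124). Ddit3, which encodes the stress factor CHOP, was lower by -1.28 ± 0.25. It shares its locus with the gene Mars on the other strand, so its reads depend on how overlapping genes were counted. The amino acid transporter genes Slc7a5 (11.4 and 22.7 CPM against 3.99 and 5.29 CPM) and Slc7a1 were lower too. Slc7a11, the cystine transporter, was higher, at 93.9 and 96.8 CPM against 58.3 and 60.3 CPM.

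The spread of this list within CN was wide. In all 15 genes called lower, CN replicate 2 lay above CN replicate 1, and summed levels of the 19 genes were 988.4 and 1326 CPM in CN against 652.4 and 698.5 CPM in E0. Without CN replicate 2, and also without E0 replicate 1, 8 genes were called instead of 15. In 7 of the 15 all 4 libraries of experiment 2 lay below experiment 1, and in all 15 both E2 libraries lay above both E0 libraries. The shares of all genes with these orders of the CN replicates, or of E2 and E0, were not counted. Genes of the unfolded protein response of the endoplasmic reticulum did not share the count of decreases. Of 18 genes 1 was higher (5.56%) and 2 were lower (11.1%), against 13.5% and 11.9% of all genes. Xbp1 was among the 2 lower.

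**Figure D3:**
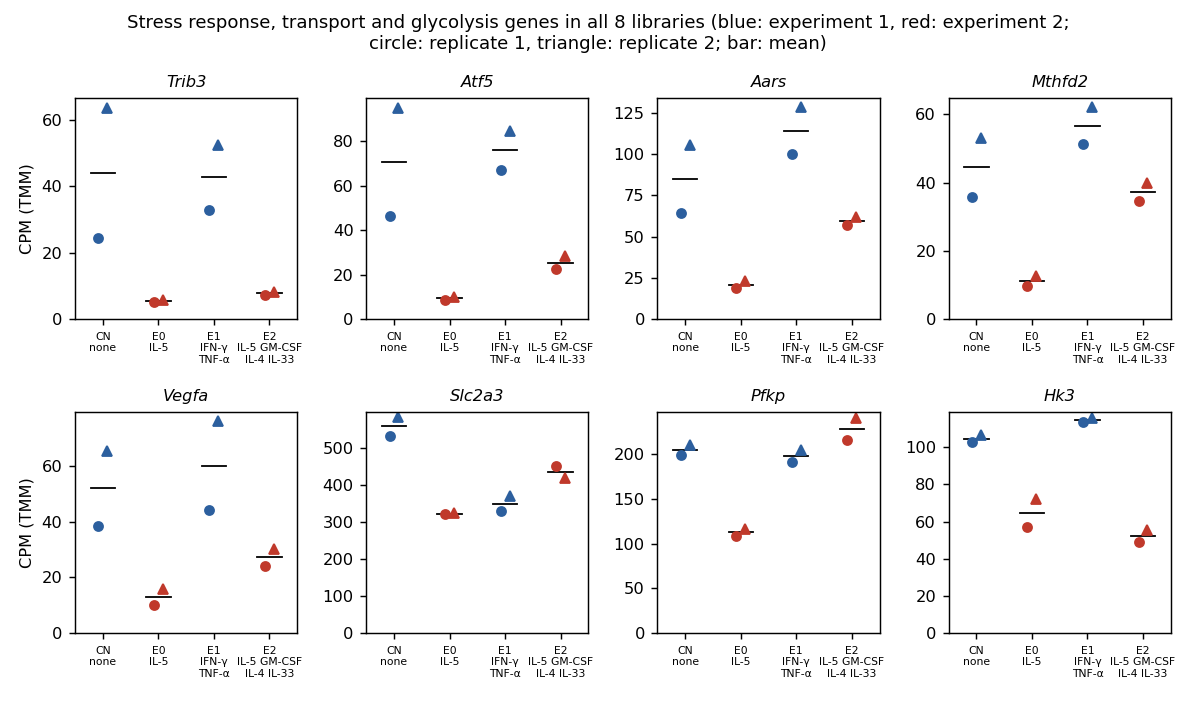
Levels in CPM (linear axis from 0) of Trib3, Atf5, Aars, Mthfd2, Vegfa, Slc2a3, Pfkp and Hk3 in all 8 libraries, with circles for replicate 1, triangles for replicate 2, bars for the mean of 2, blue for experiment 1 and red for experiment 2. Both E0 libraries lie below both CN libraries in every panel, and CN replicate 2 lies above CN replicate 1, as for Trib3 at 63.5 and 24.3 CPM.

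Glycolysis and hypoxia genes were also lower as a list. Of 30 genes edgeR called 20 lower and 0 higher, the median being -0.49. At an unadjusted p below 0.05, 1 was higher, and DESeq2 called 1 and limma-voom 0 higher. Summed levels were 12336 and 12462 CPM in CN against 8609 and 9099 CPM in E0. Pgk1 (phosphoglycerate kinase) read 222.3 and 232.7 CPM in CN and 47.3 and 51.4 CPM in E0 (-2.20 ± 0.08), and Gapdh read 1085 and 1005 CPM against 277.2 and 286.4 CPM (-1.89 ± 0.08, adjusted p = 3.48e-06). Both have processed pseudogenes, copies of their mRNA elsewhere in the genome. Of the 31-base words in their transcripts, 54.7% for Pgk1 and 27.2% for Gapdh also occurred in annotated pseudogenes. Eno1 (21.1%) and Mif (39.1%) shared sequence too.

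Of the 20 genes called lower, 14 shared under 10% of their sequence in this way. Pfkp and Pfkl, subunits of phosphofructokinase, were among them. Pfkp stood at 198.4 and 210.5 CPM in CN and 108.0 and 116.6 CPM in E0 (-0.86 ± 0.08), and Pfkl was lower by -0.84 ± 0.11. The glucose transporter gene Slc2a3 read 531.7 and 582.6 CPM against 321.1 and 322.5 CPM (-0.79 ± 0.09), and Slc2a1 was lower by -0.39 ± 0.08. Hk3, a hexokinase of myeloid cells, read 102.6 and 106.4 CPM against 57.2 and 72.2 CPM (-0.69 ± 0.11). Vegfa, the vascular growth factor induced by hypoxia, read 38.6 and 65.5 CPM against 10.1 and 15.9 CPM, a 4-fold difference (adjusted p = 0.00459). Pdk1, which limits entry of pyruvate into mitochondria, was lower by -0.74 ± 0.19. Of these 14 genes, 7 had all 4 libraries of experiment 2 below experiment 1. Without E0 replicate 2, 13 genes of the whole list were called lower instead of 20. Among 34 nuclear-encoded subunits of oxidative phosphorylation edgeR called 0 in either direction, with a median of 0.01. At an unadjusted p below 0.05, 2 of them were higher and 3 lower, and DESeq2 called 1 and limma-voom 0.

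Cytosolic ribosomal protein genes were lower, and most of them share sequence with pseudogenes. Of 30 genes 22 were lower (median -0.70), with 0 higher in edgeR, DESeq2 or limma-voom and 0 at an unadjusted p below 0.05, and 20 of the 22 calls fell among the 24 genes that shared at least 10% of their words. Among the other 6 genes 2 were lower, with a median of -0.22. Rpl15 had 120.1 and 127.7 CPM in CN and 31.5 and 26.2 CPM in E0 (-2.10 ± 0.10), with 23.5% shared, and all 22 had both E0 and E2 libraries below experiment 1. Rpl23a, the ribosomal protein gene with the largest decrease in the comparison (-2.32 ± 0.10), shares 52.3% and lies in the same place as Tlcd1, on the opposite strand. Tlcd1 was lower by nearly the same amount (-2.13 ± 0.08), and how the counting used strand was not stated.

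The pseudogenes themselves moved the other way, along with both the experiment and IL-5, which cannot be told apart. Processed pseudogenes took 0.0856% and 0.091% of the CN counts and 0.414% and 0.417% of the E0 counts. Their share was 0.0954% and 0.103% for E1, on the side of CN, and 0.387% and 0.396% for E2, on the side of E0. Of the protein-coding genes sharing 50% or more of their words 9 of 55 were higher and 24 lower (median -0.39), and of those sharing under 10%, 1185 of 11432 were higher and 1424 lower (median -0.01). The part of read assignment in the decreases of Pgk1, Gapdh and the ribosomal protein genes was not tested. Some large increases fell in genes that resemble others. Eif3j2, which shares 94.9% of its words with other annotated transcripts, read 0.443 and 0.481 CPM in CN and 8.64 and 9.43 CPM in E0, and Gstp2 (60.3% shared) read 0.105 and 0.108 CPM against 5.05 and 5.48 CPM. In E2 these genes stood at 3.91 to 12.6 CPM and in E1 at 0.0478 to 0.423 CPM, and both were chosen after their values were seen.

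**Figure D4:**
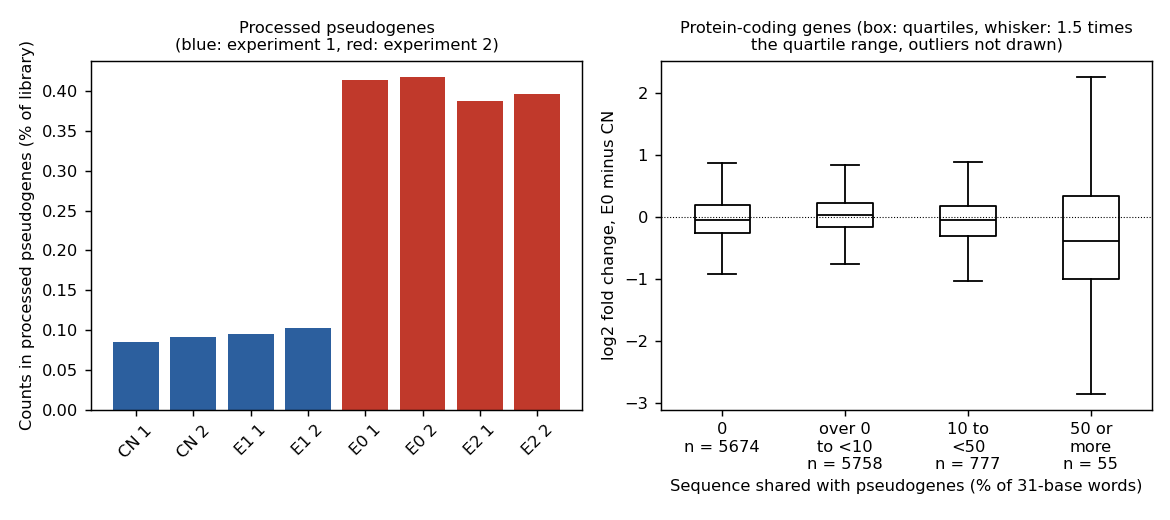
Left, bars give the share of counts in processed pseudogenes for each library, blue for experiment 1 (0.0856% to 0.103%) and red for experiment 2 (0.387% to 0.417%). Right, boxes give quartiles of the log2 fold change, E0 minus CN, of protein-coding genes by the share of 31-base words found in pseudogenes, with the lowest median (-0.39) in the 55 genes sharing 50% or more.

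Ribosome biogenesis and nucleolar genes were more often higher than lower. Of 30 genes 10 were higher and 2 lower, with a median of 0.13, and the 2 lower, Fbl and Odc1, share 20.5% and 31.3% of their words with pseudogenes. Nop58, a nucleolar scaffold, read 12.3 and 12.3 CPM in CN and 18.5 and 19.6 CPM in E0 (0.63 ± 0.09). Utp20 and Nat10, which process ribosomal RNA, were higher by 0.61 ± 0.12 and 0.51 ± 0.13. These differences were small, and 3 genes were called higher without CN replicate 2, E0 replicate 1 or E0 replicate 2. Cell cycle genes were called in 1 of 23 cases, with Mki67 at 69.3 and 63.2 CPM in CN and 83.9 and 60.6 CPM in E0.

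Oxidative stress genes under NRF2 were higher in 6 of 16 cases and lower in 1 (median 0.28). Hmox1, which degrades heme, read 23 and 23.6 CPM in CN and 62.6 and 88 CPM in E0 (1.70 ± 0.17, adjusted p = 0.000337). In E2, Hmox1 was at 23.3 and 28.4 CPM, in or near the CN range. Prdx1, a peroxiredoxin, read 50.4 and 42.7 CPM against 89.8 and 126.7 CPM (1.22 ± 0.18). Gclm and Gclc, the subunits of the enzyme that starts glutathione synthesis, were higher by 0.85 ± 0.11 and 0.73 ± 0.10. The ferritin genes parted, Fth1 being higher (0.76 ± 0.11) and Ftl1, which shares 33% of its words with pseudogenes, lower (-0.61 ± 0.09). The iron exporter gene Slc40a1 was higher, at 121.6 and 127.5 CPM against 57.6 and 80 CPM, as was the transferrin receptor gene Tfrc.

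Heat shock genes split. Hspa1a and Hspa1b, near-identical inducible HSP70 genes whose reads may be divided between them, were lower by -3.80 ± 0.70 and -3.33 ± 0.60, at low levels (Hspa1a 1.16 and 3.94 CPM in CN, 0.113 and 0.239 CPM in E0). Hsph1, a partner of HSP70, was higher by 0.72 ± 0.12. Of 17 chaperone genes 2 were higher and 5 lower.

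MHC class II genes, which present peptides to CD4 T cells, were higher in 9 of 10 cases (median 1.82). H2-Ab1 read 19.4 and 8.83 CPM in CN and 49.9 and 79 CPM in E0 (2.19 ± 0.34, adjusted p = 0.0028), and H2-Aa and H2-Eb1 were higher by 2.31 ± 0.35 and 2.35 ± 0.26. Their transactivator Ciita read 4.08 and 1.93 CPM against 9.27 and 12 CPM, and the invariant chain Cd74 read 70.2 and 35.6 CPM against 139.1 and 236.6 CPM. The order within groups was the same for most of the list. CN replicate 1 lay above replicate 2 in the genes just named, and E0 replicate 2 above replicate 1 in 8 of the 9 called. The shares of all genes with these orders were not counted. MHC class I and peptide loading genes were lower in 4 of 16 cases, H2-D1 by -0.47 ± 0.11, and 1 was called without CN replicate 2 or E0 replicate 1.

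Several of the largest increases among genes with established symbols at 10 CPM or more fell in genes known from macrophages. Gpnmb, a lysosomal glycoprotein of lipid-laden macrophages, read 3.84 and 1.93 CPM in CN and 27.5 and 51.4 CPM in E0 (3.77 ± 0.37, adjusted p = 0.000263). In E2, Gpnmb was at 5.01 and 5.19 CPM, just above the CN range. The scavenger receptor gene Cd36 read 2.48 and 1.45 CPM against 16.4 and 31 CPM (3.59 ± 0.35), and was 10.8 and 13 CPM in E2. The lysozyme gene Lyz1 had the largest fitted increase (4.52 ± 1.28), at 0.822 and 0.757 CPM in CN and 8.45 and 27.8 CPM in E0, but 1 E1 library held 19.5 CPM and the other 0.695 CPM, and its call was lost in 3 of the 4 fits that leave out a library.

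The fatty acid binding protein genes Fabp5 (5.75 and 4.27 CPM in CN, 14.6 and 26.2 CPM in E0) and Fabp4 (0.411 and 0.324 CPM, 4.2 and 7.02 CPM) were higher, as was the lipoprotein lipase gene Lpl by 2.78 ± 0.27. Fabp4 and Lpl were chosen after their values were seen. Of 11 sterol efflux genes 2 were higher and 3 lower, with a median of -0.36. Apoe, the apolipoprotein, read 48.8 and 28.2 CPM in CN and 71.9 and 132.6 CPM in E0, and about 2 CPM in each library of E1 and E2 (2.03 to 2.65 CPM). The protease gene Ctss (2.00 ± 0.34) and the clearance receptor gene Stab1 (1.92 ± 0.30) were higher too. Among the decreases, Soat2, which esterifies cholesterol, and Lipg, an endothelial-type lipase, were lower by -2.93 ± 0.41 and -2.89 ± 0.18. Lipg was at 95.6 and 116.5 CPM in CN and 15.8 and 12.9 CPM in E0, and at 484.9 and 394.5 CPM in E2. Cholesterol synthesis genes were called in 1 of 23 cases, Mvd being lower by -0.71 ± 0.06. The CN replicates lay far apart on this list, its summed level being 2133 and 1230 CPM in CN and 1835 and 1745 CPM in E0.

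Of 22 monocyte, macrophage and dendritic cell markers 13 were higher and 1, Ly6c2, lower (median 0.90). C1qb, a complement component, read 0.432 and 0.204 CPM in CN and 2.35 and 4.17 CPM in E0, and Mrc1, the mannose receptor, read 0.664 and 0.457 CPM against 4.41 and 7.4 CPM. Their level was higher in E0 replicate 2 than in replicate 1 for 11 of the 13 genes called higher, the order also seen in 8 of 9 MHC class II genes, Gpnmb and Cd36. The summed level of the list was 1471 and 1216 CPM in CN and 1495 and 1836 CPM in E0, and none of its markers was at 0 in a CN or E0 library. Csf1r (-0.04 ± 0.10) and Lyz2 (0.64 ± 0.26), the most abundant of the macrophage markers named here, were not called. For 9 of the 13 genes called higher both E2 libraries lay below both E0 libraries, an order that picking genes high in E0 favours. The shares of all genes with these orders of E2 and E0, or of the E0 replicates, were not counted.

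NK cell markers were higher in 8 of 12 cases, their sum being 22.4 and 18 CPM in CN and 44.8 and 49.2 CPM in E0. Without E0 replicate 2, 5 were called. Ncr1, the NKp46 receptor, read 0.432 and 0.685 CPM against 1.4 and 1.87 CPM. B cell markers were higher in 5 of 12 cases, including Ms4a1 (0.864 and 1.09 CPM, 3.38 and 3.54 CPM). Basophil and mast cell markers were higher in 4 of 10, among them the basophil protease gene Mcpt8, and lower in 1, Kit, which read 12.5 and 26 CPM in CN and 4.75 and 4.7 CPM in E0. Sums of these lists were 214.4 and 173.7 CPM in CN and 209.6 and 205.4 CPM in E0 for B cells, and 111.9 and 120.4 CPM against 95.8 and 90 CPM for basophils and mast cells. Most of the B cell sum was Bank1, at 182.4 and 139.0 CPM in CN and 167.7 and 161.2 CPM in E0. Bank1 was not called, so that sum does not describe the 5 B cell markers called higher. Neutrophil markers were higher in 2 of 19 and lower in 2 (10.5% each, against 13.5% and 11.9% of all genes). Of 7 T cell, 3 platelet and 5 erythroid markers edgeR, DESeq2 and limma-voom called 0, with 0 at an unadjusted p below 0.05. The part of other cells in the differences of the class II genes, Gpnmb and Cd36 was not tested. In bulk libraries a changed share of cells and a changed RNA content per cell cannot be told apart.

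**Figure D5:**
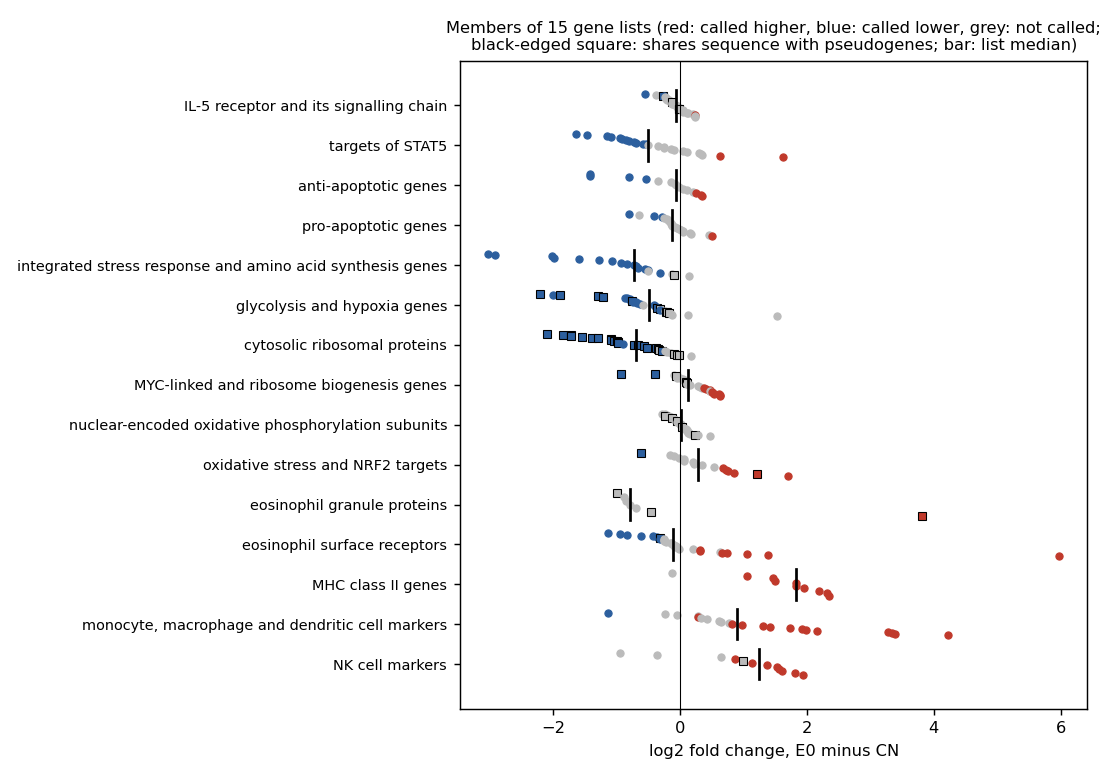
Log2 fold changes, E0 minus CN, of the members of 15 gene lists, red where called higher, blue where called lower and grey where not called, with black-edged squares for genes sharing at least 10% of their words with pseudogenes and black bars for list medians. The lists of stress response (-0.73) and ribosomal protein genes (-0.70) lie to the left and MHC class II (1.82) to the right, while the oxidative phosphorylation list is centred at 0.01.

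Genes that define the eosinophil were present in all 4 libraries. Ccr3, the eotaxin receptor, read 2058 and 2097 CPM in CN and 2590 and 2561 CPM in E0 (0.31 ± 0.09), and Siglecf, an inhibitory lectin, read 1004 and 937.0 CPM against 757.3 and 760.2 CPM (-0.36 ± 0.09). The call of Ccr3 was lost in 6 of the 15 alternatives, the CN and E0 libraries alone among them, and that of Siglecf in 4. Il1rl1, the IL-33 receptor, was not called (-0.15 ± 0.09). Of 7 granule protein genes edgeR called 0 lower, DESeq2 1 and limma-voom 2, and 3 reached an unadjusted p below 0.05 in that direction. Prg2, the major basic protein, read 449.9 and 508.8 CPM in CN and 335.8 and 185.0 CPM in E0 (-0.88 ± 0.29, adjusted p = 0.0566), and Epx, the eosinophil peroxidase, differed by -0.79 ± 0.39. Their sum over 7 genes was 1036 and 1055 CPM in CN and 770.1 and 417.8 CPM in E0, so E0 replicate 2 was the lowest. The ribonuclease gene Ear10, on the same list, was called higher by edgeR, by 3.81 ± 0.50, at 0.19 and 0.108 CPM in CN and 1.9 and 2.36 CPM in E0. Ear10 shares 37.5% of its words with pseudogenes.

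Of 30 eosinophil surface receptors 7 were higher and 8 lower. These counts were 3 and 5 without CN replicate 2, 4 and 3 without E0 replicate 1, and 3 and 4 without E0 replicate 2. Clec4a4, a C-type lectin, had the largest increase of them, from 0.0527 and 0.024 CPM to 2.43 and 2.66 CPM (5.97 ± 0.39, adjusted p = 3.11e-05), with 7 counts in CN and 374 in E0, and E2 held 3.32 and 3.86 CPM. Itgax (CD11c) read 170.9 and 122.5 CPM in CN and 242.1 and 246.8 CPM in E0, and Cd101 was higher by 0.66 ± 0.08. The call of Itgax was lost in 3 of the 15 alternatives, each of them leaving out a library, and that of Cd101 in 0. Cd274, which encodes PD-L1, was lower at 25.6 and 33 CPM against 47.3 and 57.7 CPM. Selplg, which carries selectin ligands, was lower by -0.48 ± 0.08, and lower still in E2, at 425.8 and 428.9 CPM against 722.8 and 714.4 CPM in E0. Among chemoattractant receptors 5 of 28 were higher (17.9%) and 3 lower (10.7%), against 13.5% and 11.9% of all genes. Those higher included P2ry10 and Cx3cr1 (4.66 and 3.41 CPM, 10.8 and 16.1 CPM). Cx3cr1 is also among the macrophage markers above and stood at 0.352 and 0.772 CPM in E2. The part of other cells in its difference was not tested. Of the receptors lower, the short-chain fatty acid receptor gene Ffar2 differed most (150.3 and 138.7 CPM, 54.7 and 57.2 CPM). Without CN replicate 2 or E0 replicate 1, 2 and 3 receptors of the list were higher, and without E0 replicate 2, 1 was higher and 1 lower. Cx3cr1 missed the threshold in 2 fits, at an adjusted p of 0.0638 when CN replicate 2 was left out and 0.0618 when E0 replicate 2 was.

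Secreted factors were mixed, with 8 of 35 cytokine, chemokine and growth factor genes higher and 6 lower, or 5 and 3 without E0 replicate 2. Csf1, the macrophage growth factor, was the most abundant of those higher, at 460.5 and 413.0 CPM in E0 against 296.1 and 286.0 CPM in CN (0.59 ± 0.08). Il1b read 60.3 and 78 CPM against 39.6 and 36 CPM. Igf1, a growth factor, read 5.76 and 8.16 CPM against 0.928 and 0.781 CPM, and between 0 and 0.257 CPM in the E1 and E2 libraries. The chemokine gene Ccl2 had 2 counts in CN and 72 in E0, a ratio of 46 corrected for library size, with an exact 95% interval of 12.3 to 387.5 that covers counting error only. Il13, a type 2 cytokine, was lower at 5.84 and 4.5 CPM against 14.4 and 9.93 CPM (-1.24 ± 0.32), and Hbegf was lower by -1.14 ± 0.16. The call of Il13 was lost in 3 of the 15 alternatives, each of them leaving out a library, and that of Hbegf in 0. Il4 overlapped between the groups, at 74.8 and 69.5 CPM in CN and 70.6 and 68.5 CPM in E0. The matrix protease gene Mmp27 read 73.9 and 77.1 CPM in E0 and 19.6 and 26.1 CPM in CN (1.72 ± 0.16), while in E2 it stood at 5.93 and 7.91 CPM.

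Transcription factors of the lineage included Id2 (378.3 and 407.0 CPM in E0, 250.2 and 187.1 CPM in CN) and Runx1 among 4 of 24 higher, and Zfpm1 (FOG1) and Cebpb among 6 lower. Without CN replicate 1, 2 were higher, and without E0 replicate 1, 2 were lower. The call of Cebpb was lost with library totals alone (adjusted p = 0.054) and without CN replicate 1, CN replicate 2 or E0 replicate 1 (adjusted p = 0.128, 0.0684 and 0.179). Klf2, a factor of quiescence, was lower at 119.5 and 143.3 CPM against 255.4 and 250.6 CPM. Of 26 FOXO targets, the group to which Klf2 and Irs2 belong, 4 were higher and 4 lower. Of the list, edgeR called 0 higher without CN replicate 2, 1 without E0 replicate 1, 1 without E0 replicate 2 and 2 without CN replicate 1. Interferon-stimulated genes were higher in 2 of 29 and lower in 4 (1 without E0 replicate 1), with Oasl2 at 82 and 167.0 CPM in CN and 36.2 and 49.2 CPM in E0.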

How the data were processed

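RNA from cultured mouse eosinophils was made into 8 stranded mRNA libraries (TruSeq Stranded mRNA), per the labels' protocols. The deposited table holds raw, unscaled read counts by Ensembl gene. STAR, featureCounts and mm10 are named in the submitters' processing notes. For versions, annotation, strand setting and multi-mapping reads, the sources used here give nothing. Of 15918 rows, 1 without a name equalled the column totals (100% of named counts) and was left out. GENCODE M21 matched 15730 of 15917 IDs, and the 187 others held 1.2% of counts. It gave 12274 protein-coding genes, 12265 without retrocopies.

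Tests used R 4.3.3 and edgeR 4.0.16 with filterByExpr (4 genes removed, 15913 kept), TMM scaling and a two-sided quasi-likelihood F test. All 8 libraries entered the fit with a mean for each group, leaving 4 residual degrees of freedom. The fit had no term for the replicate number. Calls are at a Benjamini-Hochberg adjusted p below 0.05 over all genes tested, and the code was tested on simulated data. The common biological coefficient of variation was 0.147. Values after ± are standard errors (SE) of log2 fold changes with n = 2 per group. DESeq2 1.42.0, limma-voom (limma 3.58.1), other scalings, other filters, other sets of libraries and a replicate block were alternatives.

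Sharing of sequence is the percent of a gene's 31-base words found in annotated pseudogene transcripts of GENCODE M21, on either strand. Genes were named by rule: first the 12 strongest increases and the 12 strongest decreases that were called, reached 10 CPM in the higher group, had no overlap between libraries and had an established symbol. From each of 45 lists up to 3 called members each way at that level were added, or the 2 highest where none was called, with a fixed set of survival and eosinophil genes. Further genes were named after their values were seen. Some genes that the rule names are not reported here. The members and lists were chosen with earlier results of these data known. Promoter windows (250 bases before to 50 after the start) are from RefSeq on GRCm38.p6.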

Additional observations from a re-analysis of the deposited data

Results flagged for a closer look

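Signal appeared in genes that the comparison did not use. Of 825 processed pseudogenes, 532 were called higher in E0 than in CN and 35 lower, with a median log2 fold change of 3.00, and in 560 all 4 libraries of experiment 2 lay above all 4 of experiment 1.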

How the results depend on the processing

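The counts of protein-coding genes called were 2888 in all, 1268 higher and 1620 lower. With a replicate block in the CN and E0 libraries alone they were 1597, 700 and 897, and the block over all 8 libraries gave 2891. Replicate numbers come from the labels, which do not say what a number marks. Deviations of same-numbered libraries correlated at 0.177 between CN and E0 over 13285 genes. Within an experiment they correlated at 0.714 (CN and E1) and 0.704 (E0 and E2), and across experiments at 0.122 to 0.351. The main fit treated the 8 libraries as independent, so its shared spread may count the same replicate difference more than once. The block over all 8 libraries used the same replicate term for both experiments. In CN and E0 the numbers also go with the presence or absence of the Y-linked gene Eif2s3y, so values without and with the block are given. Scaling by library totals alone gave 1046 genes lower. Leaving out each library in turn gave 1310 to 2125 calls, with 551 to 941 higher and 738 to 1184 lower, where a lone library is assumed to vary like the other groups. DESeq2 gave 3217 calls, limma-voom 2902 and the CN and E0 libraries alone 2275. Leaving out genes that share at least 10% of their words with pseudogenes, an alternative chosen after seeing the data, gave 2609. Of 216 named genes that were called, 133 kept their call under every alternative, 171 under each that keeps all 4 libraries, and 0 changed sign in any. Scaling moved the median of the protein-coding genes by at most 0.06. Differences among genes of few counts are limited by depth.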

Other observations

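In other gene groups calls fell in both directions between CN and E0. Of 22 innate receptors and adaptors 5 were higher and 5 lower. Tlr7, a sensor of RNA, read 1.51 and 1.03 CPM in CN and 3.33 and 5.98 CPM in E0, and the sensors of bacterial wall fragments Nod1 and Nod2 were lower by -0.48 ± 0.06 and -0.55 ± 0.09. Among 25 NF-kappaB subunits and targets 6 were higher and 5 lower. Cd83, a surface protein of activated antigen-presenting cells, read 2.16 and 1.33 CPM against 5.91 and 8.1 CPM, while Bcl3 was lower by -0.76 ± 0.14. Immediate early genes were higher in 4 of 20 cases, with Nr4a3 at 1.21 and 0.553 CPM in CN and 2.75 and 4.07 CPM in E0, and lower in 1, Jund. Of 16 prostaglandin and leukotriene enzymes 4 were higher, among them the cyclooxygenase gene Ptgs2 (0.727 and 0.997 CPM, 3.15 and 2.18 CPM), and 1 lower. Alox15, the most abundant enzyme of that list named here, was not called (-0.26 ± 0.12).

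Further lists are given by their counts, beside 13.5% higher and 11.9% lower over all genes. Some lie near or below those shares, such as autophagy and lysosome genes (16.1% each way) and p53 targets (5.26% and 10.5%). Higher and lower calls numbered 4 and 6 of 23 adhesion genes (1 and 3 without CN replicate 1, CN replicate 2 or E0 replicate 1), 5 and 5 of 31 autophagy and lysosome genes, 7 and 7 of 23 matrix and repair genes, 2 and 3 of 11 sterol efflux genes, 2 and 3 of 18 translation factors, and 1 and 2 of 19 p53 targets. Of 9 NADPH oxidase subunits 1 was higher. Lars2, chosen after its values were seen, was the most abundant protein-coding gene in E0 replicate 1 at 12261 CPM, against 4868 CPM in E0 replicate 2 and 2745 and 3715 CPM in CN (1.41 ± 0.42, adjusted p = 0.0429). Its call was lost in 6 alternatives (adjusted p 0.0519 to 0.267), among them without CN replicate 1, without CN replicate 2 and without E0 replicate 1.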
